A study of Mus musculus with 22 samples.

Results

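The 6 genes described here encode subunits of the NMDA receptor, and were chosen by symbol: Grin1, Grin2a, Grin2b, Grin2c, Grin2d and Grin3a, 6 of the 55385 genes in the deposited tables. All 6 were among the 20524 genes that passed the filter on low counts. The study used RiboTag mice, in which Cre recombinase switches on an HA-tagged copy of the ribosomal protein Rpl22, so that mRNA bound to tagged ribosomes can be immunoprecipitated from 1 cell type of a dissected tissue. All mice were 6 weeks old, of genotype Rpl22 Fl/+ with a Cre inherited from the father, and both sexes were used. Granule cells of the dentate gyrus came from the hippocampus of Rbp4-Cre mice, layer V neurons from the cortex of Rbp4-Cre mice, cerebellar granule cells from the cerebellum of Gabra6-Cre mice and inhibitory interneurons from the hippocampus of Dlx6a-Cre mice. Astrocytes came from cortex (labelled Aldh1-cre, in the methods the tamoxifen-inducible Aldh1l1-cre/ERT2) and microglia from cortex (Tmem119-cre, inducible by tamoxifen). Each cell type had 3 libraries, 18 in all, and each interneuron library pooled 2 mice. Rbp4-Cre marks both dentate granule cells and layer V neurons, so that the tissue alone separated them, and cell type, Cre line and (outside the pairs from 1 tissue) brain region cannot be told apart.

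NMDA receptors are glutamate-gated, calcium-permeable channels that open only when glutamate and a co-agonist, glycine or D-serine, are both bound and depolarisation has lifted the magnesium block. Each channel holds the obligatory GluN1 subunit, encoded by Grin1, together with GluN2 subunits, encoded by Grin2a to Grin2d, or GluN3 subunits. The GluN2 subunit binds glutamate and sets the channel's kinetics, conductance and magnesium block, and GluN3A lowers calcium permeability. Grin1 mRNA is alternatively spliced at 3 places: the N1 cassette lies in the extracellular amino-terminal domain and influences proton sensitivity and deactivation, the C1 cassette carries a retention signal for the endoplasmic reticulum and sites for kinases, and the protein ends with either C2 or C2′.

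The Grin1 cassettes are shown because the splice form results below turn on them. They were read from the minus strand of chromosome 2 of GRCm38, and capitals mark the cassette while the 12 lower-case bases on a side come from the neighbouring coding exon. N1 (chr2:25311343-25311405, 63 bases, 21 codons) is an internal coding exon, as is C1 (chr2:25294438-25294548, 111 bases, 37 codons). C2 (chr2:25292368-25292484, 117 bases) and C2′ (chr2:25292060-25292128, 69 bases) are alternative coding ends of the last exon that both close with a stop codon, after 38 and 22 codons, so that only the upstream flank is printed for them.
N1: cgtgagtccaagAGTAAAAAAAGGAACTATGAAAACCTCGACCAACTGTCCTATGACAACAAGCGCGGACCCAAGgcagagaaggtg
C1: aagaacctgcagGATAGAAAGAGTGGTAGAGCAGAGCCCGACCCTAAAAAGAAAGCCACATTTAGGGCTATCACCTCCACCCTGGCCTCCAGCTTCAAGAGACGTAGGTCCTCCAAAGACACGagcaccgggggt
C2: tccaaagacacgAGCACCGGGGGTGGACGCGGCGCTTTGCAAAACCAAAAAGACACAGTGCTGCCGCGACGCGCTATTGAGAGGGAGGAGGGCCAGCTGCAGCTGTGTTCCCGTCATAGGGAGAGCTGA
C2′: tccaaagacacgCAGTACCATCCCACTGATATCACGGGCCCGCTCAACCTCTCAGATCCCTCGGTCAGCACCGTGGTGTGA

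Estimated counts per library ran from 38270477 to 71440915. The markers of each labelled cell type were high in its own libraries, with 2 cautions. Of the layer V list, only Fezf2 was highest in layer V neurons (85.5 TPM, a level scaled to transcript length and library size). Bcl11b was higher in dentate granule cells, Etv1 in cerebellar granule cells, Bcl6 in both and Parm1 in interneurons. The list summed to 272 to 291 TPM in layer V libraries, below dentate (335 to 378) and cerebellar granule cells (852 to 859). RNA of other cell types was also measured: the 5 pan-neuronal markers summed to 826 to 1090 TPM in the astrocyte libraries and 383 to 430 in the microglia libraries, against 8040 to 8230 in layer V libraries, with 5 of 5 at 1 TPM or more in both glial types. The 8 interneuron markers summed to 201 to 293 TPM in dentate granule cell libraries, with 6 of 8 at 1 TPM or more, against 8800 to 9700 in interneuron libraries, and the 5 oligodendrocyte markers summed to 2610 to 2800 TPM in interneuron libraries, above every other cell type. The 6 astrocyte markers summed to 210 to 264 TPM in microglia libraries, against 7860 to 8190 in astrocyte libraries.

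Which subunits does each cell type translate, and at what level? Grin1 was high and nearly level over the 4 neuronal types and far lower in glia, whereas each GluN2 gene had its own pattern. Grin2a and Grin2b were highest in dentate granule cells, Grin2c in astrocytes and cerebellar granule cells, and Grin2d and Grin3a in interneurons. Levels below are TPM, summed over a gene's transcripts, which allow genes to be compared per length, and the errors are SD over 3 libraries. Differences between cell types are log2 fold changes with standard errors from edgeR's quasi-likelihood test on estimated counts, adjusted by Benjamini-Hochberg over all 20524 genes and called at 0.05. In bulk samples such as these, fewer cells of a type and less RNA per cell cannot be told apart.

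**Figure D1:**
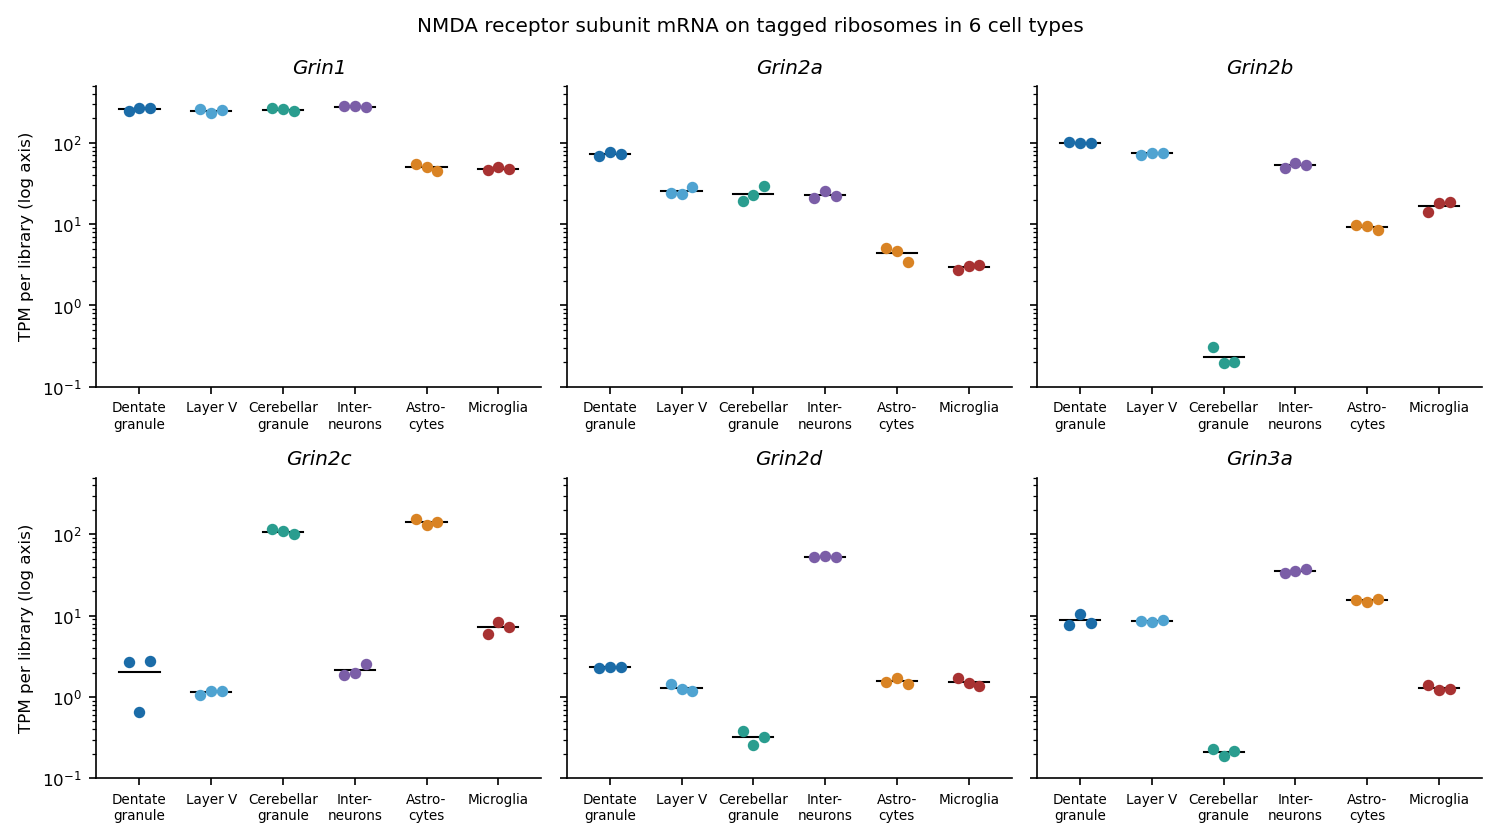
Level of each subunit gene in TPM on a log axis, by cell type; points are single libraries (3 per cell type) and lines are means. Grin1 lies between 236 and 281 TPM in every neuronal library, while Grin2d is at 52.3 TPM or more in interneurons and at 2.37 TPM or less in every other library.

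Grin1 (chr2:25291181-25319187, minus strand, GRCm38), the gene of the obligatory subunit, was at 245, 265 and 268 TPM in the dentate granule cell libraries and at 257, 236 and 252 TPM in layer V neurons. It was at 267, 257 and 245 TPM in cerebellar granule cells and at 281, 280 and 276 TPM in interneurons. The ranges of dentate, layer V and cerebellar neurons overlapped, and interneurons lay just above. In glia Grin1 was at 55.2, 50.5 and 44.6 TPM in astrocytes and at 46.4, 50.5 and 47.8 TPM in microglia, below every neuronal library and with overlapping ranges. Grin1 was higher in neurons than in glia by 2.24 on the log2 scale (SE 0.04, adjusted p = 8.8e-21).

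Grin2a (chromosome 16, 9567898 to 9995560) encodes GluN2A, which gives fast-deactivating channels typical of mature synapses. It was at 69.2, 76.8 and 72.5 TPM in dentate granule cells, above all other libraries. Layer V neurons had 23.9, 23.2 and 28.8 TPM, cerebellar granule cells 19.3, 22.9 and 29.2 TPM and interneurons 20.8, 25.9 and 22.5 TPM, so that these 3 types overlapped. Astrocytes ranged from 3.47 to 5.12 TPM and microglia from 2.73 to 3.13 TPM, below every neuronal library.

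Grin2b (chromosome 6, 135713233 to 136173511) encodes GluN2B, the subunit of slower channels that binds CaMKII. It was nearly absent from 1 cell type: cerebellar granule cells were at 0.305, 0.195 and 0.201 TPM, from 86 to 139 estimated counts per library. Dentate granule cells had 102, 99.2 and 98.3 TPM, layer V neurons 71.2, 75.8 and 74.9 TPM and interneurons 49.4, 56.3 and 53.1 TPM. The ranges of all 6 cell types were apart, with microglia (14.1, 18.1 and 18.6 TPM) and astrocytes (9.77, 9.49 and 8.37 TPM) between interneurons and cerebellar granule cells. The order of the glial types rested on short transcripts: Grin2b-201, with 24060 bases, held 93.9% of the Grin2b counts but 24.6% of its TPM in microglia, and on its own stood at 4.11 TPM in microglia and 6.40 TPM in astrocytes. In neurons, Grin2b-201 held 79.8% of Grin2b TPM in dentate granule cells (79.7 TPM), 51.3% in layer V neurons (37.9 TPM) and 69.3% in interneurons (36.7 TPM), so that layer V neurons and interneurons were close to each other on this transcript.

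Grin2c (chromosome 11, 115249169 to 115267243) encodes GluN2C, known from mature cerebellar granule cells. The astrocyte libraries had 154, 130 and 141 TPM and the cerebellar granule cells 115, 109 and 101 TPM. Microglia followed far below at 5.93, 8.38 and 7.28 TPM. Interneurons (1.87 to 2.53 TPM), dentate granule cells (2.69, 0.656 and 2.74 TPM) and layer V neurons (1.07 to 1.2 TPM) were lowest, and the dentate range, wide because of 1 low library, overlapped both neighbours.

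Grin2d (chromosome 7, 45831883 to 45878378) encodes GluN2D, which gives very slow channels with a weak magnesium block and is known from interneurons. It was at 52.9, 53.5 and 52.3 TPM in interneurons. The next cell type, dentate granule cells, had 2.29 to 2.37 TPM. Astrocytes (1.46 to 1.73 TPM), microglia (1.37 to 1.69 TPM) and layer V neurons (1.19 to 1.44 TPM) followed, with neighbouring ranges that overlapped, and cerebellar granule cells were lowest at 0.260 to 0.387 TPM.

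Grin3a (chromosome 4, 49661611 to 49845744), the gene of GluN3A, had its highest level in interneurons, at 33.3, 35.9 and 37.4 TPM. Astrocytes were second at 15.8, 14.9 and 16.0 TPM. Dentate granule cells (7.61, 10.5 and 8.17 TPM) and layer V neurons (8.56, 8.25 and 8.76 TPM) overlapped, microglia were at 1.21 to 1.40 TPM, and cerebellar granule cells at 0.187 to 0.228 TPM had the lowest values. Grin3b, the gene of the other GluN3 subunit and not among the 6, was highest in cerebellar granule cells (0.830, 0.946 and 0.529 TPM, from 38 to 76 counts) and at most 0.244 TPM elsewhere. The antisense gene Grin1os had 3 to 20 counts per library.

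How far did neurons differ from glia? Of the 6 genes, 4 were higher in neurons (36.4% of all genes tested were) and 1 was lower (46.7% were), so that the number of calls was not unusual and the sizes carry the description. Grin2a was higher by 3.00 (SE 0.10), Grin1 by 2.24, Grin2b by 0.97 (SE 0.05) and Grin2d by 0.59 (SE 0.06), all on the log2 scale. Grin2c was lower in neurons, at -2.93 (SE 0.17, adjusted p = 6.5e-10), and Grin3a was not called at -0.09 (95% interval -0.21 to 0.02, adjusted p = 0.15). By limma on log2(TPM + 0.5), Grin3a turned to 0.34 and was called higher (adjusted p = 5.3e-05), which made 5 of the 6 genes higher. Each cell type has the same weight on the log scale in this contrast, so that the very low levels of Grin2b, Grin2d and Grin3a in cerebellar granule cells pull the neuronal mean down.

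Both batches held neurons and glia, so that the contrast could be taken within each, although the cell types in them differ. Within batch 1, which holds no interneurons or microglia, Grin1 (2.07) and Grin2a (2.75) stayed higher and Grin2c (-4.74) lower in neurons, Grin2b was not called (0.10, adjusted p = 0.17), Grin2d turned lower (-0.91) and Grin3a was lower (-2.89). Batch 2 holds 1 library each of dentate granule cells, layer V neurons, cerebellar granule cells and astrocytes, assumed to vary like the other groups, and there the values were 2.34 for Grin1, 3.10 for Grin2a, 1.01 for Grin2b, -2.77 for Grin2c, 0.80 for Grin2d and 0.04 for Grin3a (not called, adjusted p = 0.55).

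The glial levels of the subunits can be read against those of neuronal genes in the same libraries. Expressed as a percentage of the layer V level, Grin1 was at 20.2% in astrocytes and 19.4% in microglia, Grin2a at 17.5% and 11.8%, and Grin2b at 12.5% and 22.9%. The neuronal markers Snap25, Syt1, Stmn2, Tubb3 and Rbfox3 were at 10.3 to 18% in astrocytes and 3.91 to 14.0% in microglia, and the excitatory neuron genes Slc17a7, Camk2a and Neurod2 at 10.7 to 18.6% and 9.04 to 9.85%. The microglial percentage of Grin2b rested largely on its short transcripts. The long transcript Grin2b-201 was at 4.11 TPM in microglia, 6.4 TPM in astrocytes and 37.9 TPM in layer V neurons. In counts scaled to library size (CPM), Grin2b was at 58.3 in microglia, 90.6 in astrocytes and 512 in layer V neurons. On both measures microglia were below astrocytes. The part of neuronal RNA in the glial Grin1, Grin2a and Grin2b levels was not tested. In astrocytes Grin2c (141 TPM against 1.15 TPM in layer V neurons) and Grin3a (15.5 against 8.52 TPM) exceeded the level in layer V neurons of the same tissue.

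**Figure D2:**
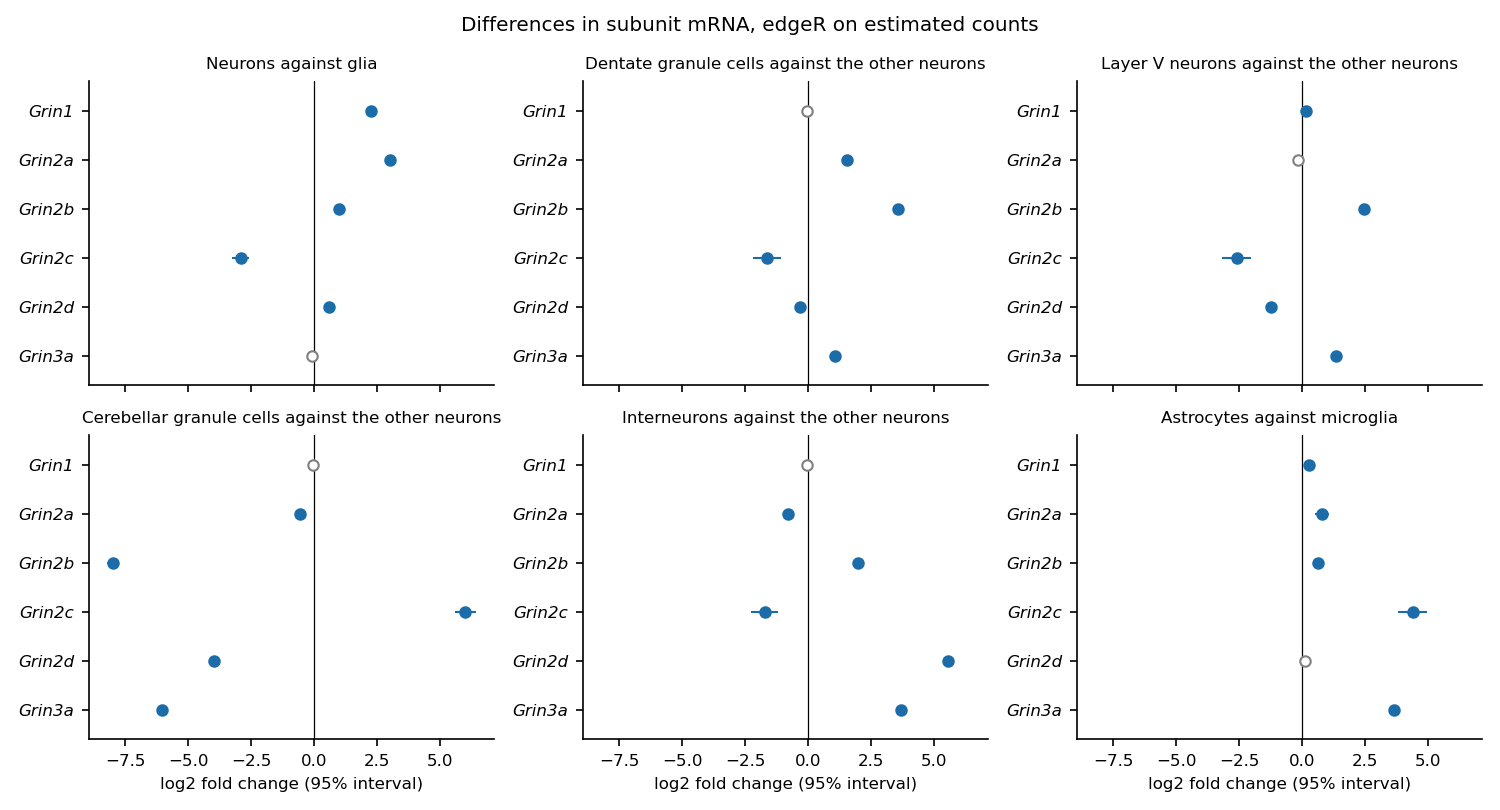
Log2 fold change of each subunit gene in 6 contrasts from edgeR, with 95% intervals; filled points are called at an adjusted p of 0.05 and open points are not. Cerebellar granule cells stand apart from the other neurons by -8.00 for Grin2b and 5.99 for Grin2c, and interneurons by 5.53 for Grin2d.

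Each neuronal type was then set against the mean of the other 3. In dentate granule cells 3 of the 6 genes were higher (36.4% of all genes tested) and 2 lower (27.6%). Grin2b was higher by 3.57 (SE 0.06, adjusted p = 2.7e-19), Grin2a by 1.52 (SE 0.10) and Grin3a by 1.04 (SE 0.07), whereas Grin2c was lower at -1.64 (SE 0.27) and Grin2d at -0.32 (SE 0.08). The rises of Grin2b and Grin3a rested largely on the very low cerebellar levels: dentate granule cells differed from cerebellar granule cells by 8.68 in Grin2b and 5.31 in Grin3a, but from layer V neurons by 0.83 and -0.22. The mean Grin3a level of dentate granule cells (8.75 TPM) was below that of the other neurons together (14.8 TPM). Grin2d turned to 1.67 within batch 1, where no interneurons are left among the other neurons. The Grin2c fall rested on cerebellar granule cells (-5.72), since dentate granule cells were not called apart from layer V neurons (0.73) or interneurons (0.08). Grin1 was not called (-0.07, 95% interval -0.16 to 0.01, adjusted p = 0.14), but was called lower in 17 of 28 alternative settings, with values down to -0.15. A direct comparison with interneurons of the same tissue, in which 63.6% of all genes were called, gave differences of 1.74 for Grin2a, 1.2 for Grin2b, -1.96 for Grin3a and -4.39 for Grin2d in dentate granule cells, and none called for Grin1 (-0.02, 95% interval -0.12 to 0.08) or Grin2c (0.08, -0.56 to 0.72).

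In layer V neurons 3 genes were higher (35.8% of all genes) and 2 lower (31.6%). Grin2b (2.46, SE 0.06) and Grin3a (1.33, SE 0.07) were higher, while Grin2c (-2.61, SE 0.29) and Grin2d (-1.24, SE 0.08) were lower. Here too the rises of Grin2b and Grin3a rested on cerebellar granule cells, from which layer V neurons differed by 7.85 and 5.53. Against interneurons the differences were 0.37 for Grin2b and -1.75 for Grin3a, and the mean Grin3a level was 8.52 TPM in layer V neurons and 14.8 TPM in the other neurons together. Grin1 was higher by 0.16 (SE 0.04, adjusted p = 0.0021) in counts. Its summed TPM were lower in layer V neurons than in the other neurons (248 against 265), and on log2 TPM the difference was -0.09 and not called (adjusted p = 0.15 by limma). Without layer V replicate 1, whose sex is labelled differently in the 2 batches, Grin1 was at 0.11 and not called (adjusted p = 0.052). Grin2a was not called (-0.18, 95% interval -0.39 to 0.04), but was called lower in 4 of 28 alternative settings: within batch 1 (-0.50, adjusted p = 0.0066), within batch 2 (-0.36, adjusted p = 0.01), by limma on log2 TPM (-0.43, adjusted p = 0.0037) and without cerebellar granule cell replicate 1 (-0.25, adjusted p = 0.028). Grin2d turned to 0.68 within batch 1, where no interneurons are left among the other neurons. The Grin2d fall rested largely on interneurons (-5.08), since layer V neurons were above cerebellar granule cells by 2.05 and below dentate granule cells by only 0.69. The Grin2c fall rested on cerebellar granule cells (-6.45). Layer V neurons were not called apart from interneurons in Grin2c (-0.65), nor were dentate granule cells from layer V neurons (0.73).

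Against astrocytes of the same tissue, where 77.1% of all genes were called, layer V neurons had more Grin1 (2.23, SE 0.05), Grin2a (2.48) and Grin2b (2.50) and less Grin2c (-7.07, SE 0.35), Grin3a (-0.92, SE 0.08) and Grin2d (-0.40). The 6 genes thus all differed between these cortical cell types, 3 in each direction.

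Cerebellar granule cells had 1 higher gene (34.8% of all genes) and 4 lower ones (42.9%). Grin2c was higher by 5.99 (SE 0.21, adjusted p = 4e-12). Grin2b was lower at -8.00 (SE 0.11, adjusted p = 5.2e-21), Grin3a at -6.03 (SE 0.11), Grin2d at -3.97 (SE 0.10) and Grin2a at -0.55 (SE 0.11). The Grin2a fall rested largely on dentate granule cells, which were above cerebellar granule cells by 1.55. For Grin2a, layer V neurons minus cerebellar granule cells gave 0.28 and cerebellar granule cells minus interneurons 0.18, neither called. Grin1 was not called (-0.04, 95% interval -0.13 to 0.04). Within batch 2, where dentate, layer V and cerebellar neurons have 1 library each that is assumed to vary like the other groups, Grin2a was at -0.10 and not called (adjusted p = 0.41), and within batch 1 it was at -0.86. Astrocytes, the other cell type with a high Grin2c level, still had slightly more of it (cerebellar minus astrocyte -0.63, SE 0.26, adjusted p = 0.038; 82.6% of all genes were called in this pair), and far more Grin2b (-5.35) and Grin3a (-6.44).

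In interneurons 3 genes were higher (35.9% of all genes) and 2 lower (28.3%). Grin2d was higher by 5.53 (SE 0.07, adjusted p = 5e-21), Grin3a by 3.66 (SE 0.07) and Grin2b by 1.97 (SE 0.06), and Grin2c (-1.74, SE 0.27) and Grin2a (-0.80, SE 0.11) were lower. The fold for Grin2b is set by the very low level in cerebellar granule cells, since interneurons had less Grin2b than dentate granule cells and layer V neurons. Grin1 was not called (-0.04, 95% interval -0.13 to 0.04), but on log2 TPM it was at 0.13 and called higher (adjusted p = 0.043 by limma). Interneuron RNA was measured in other libraries at low levels: 7 of 8 interneuron markers lay between 0.174 and 1.72% of their interneuron level in dentate granule cells and Gad1 at 7.37%, beside 4.43% for Grin2d and 24.6% for Grin3a. In layer V neurons the 8 markers lay between 0.733 and 4.82%, beside 2.44% for Grin2d and 24% for Grin3a. The part of interneuron RNA in the low Grin2d levels was not tested. Against astrocytes, where 72.9% of all genes were called, interneurons had more Grin3a by 0.83 (SE 0.08) and more Grin2d by 4.68 (SE 0.10).

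Of the 2 glial types, astrocytes had 5 of the 6 genes higher than microglia (39.6% of all genes) and 0 lower (36.2%) by edgeR, with Grin2d not called at 0.12 (SE 0.09, adjusted p = 0.23). Grin2c differed by 4.38 (SE 0.30, adjusted p = 7.9e-09) and Grin3a by 3.65 (SE 0.09), while Grin2a (0.78), Grin2b (0.64) and Grin1 (0.26) differed less. The pan-neuronal markers also summed higher in astrocyte (826 to 1090 TPM) than in microglia libraries (383 to 430 TPM). The part of neuronal RNA in the differences between these glial types was not tested. For Grin2b the unit decides the direction: the mean level in counts scaled to library size was 90.6 CPM in astrocytes and 58.3 CPM in microglia, but the mean TPM was 9.21 and 16.9, and limma on log2 TPM gave -0.84. On TPM Grin1 was not called either (0.05, adjusted p = 0.51). The main astrocyte libraries were of batch 1 and the microglia libraries of batch 2. Within batch 2, with 1 astrocyte library assumed to vary like the others, the same 5 genes were called higher.

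**Figure D3:**
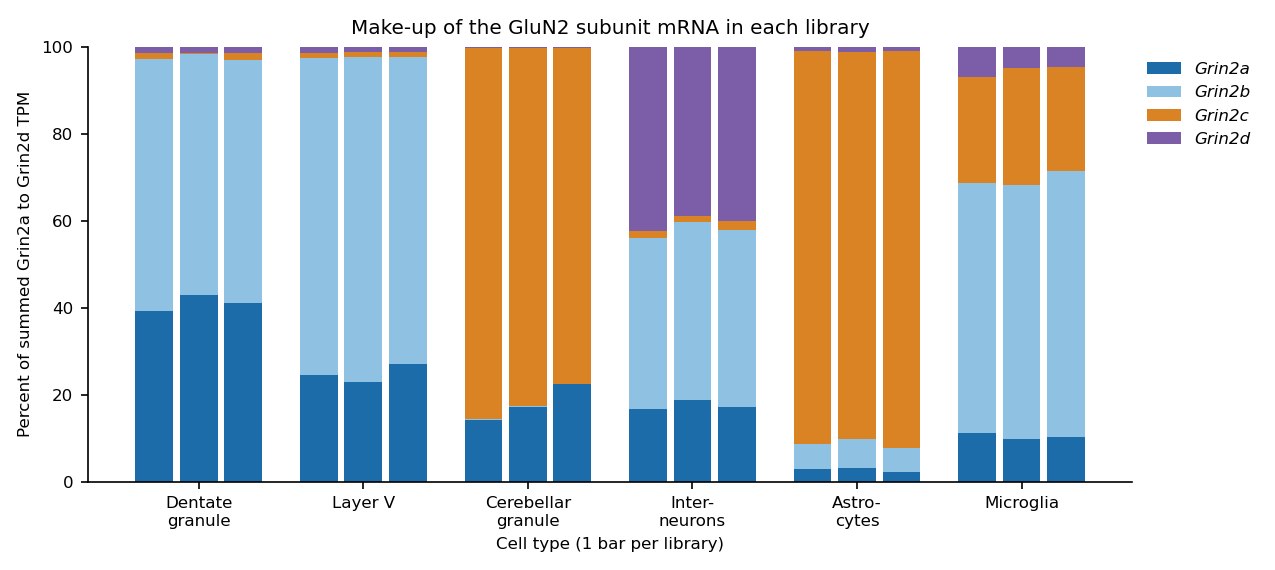
Share of each Grin2 gene in the summed TPM of Grin2a to Grin2d, 1 bar per library and 3 libraries per cell type. Grin2c holds 77.2 to 85.2% in cerebellar granule cells and 89.1 to 91.4% in astrocytes, and Grin2d 38.9 to 42.3% in interneurons.

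What is the make-up of the GluN2 mRNA within a cell type? In dentate granule cells Grin2b held 56.4% ± 1.32 (SD, n = 3) and Grin2a 41.1% ± 1.82 of the summed Grin2 TPM. Layer V neurons were further toward Grin2b, with 72.8% ± 2.05 against 24.8% ± 2.14 for Grin2a. Cerebellar granule cells carried Grin2c (81.6% ± 4.07) and Grin2a (18% ± 4.11), with 0.177% ± 0.0462 for Grin2b. Interneurons had equal shares of Grin2b (40.4% ± 0.732) and Grin2d (40.4% ± 1.75) beside 17.6% ± 1.12 for Grin2a. Astrocytes carried almost only Grin2c (90.3% ± 1.16), and microglia Grin2b (59.1% ± 1.85) and Grin2c (25.1% ± 1.65), from a Grin2 sum of 28.6 TPM. The microglial order rested on short Grin2b transcripts: with coding transcripts of 3000 bases or more alone it turned, to 27.0% ± 1.62 for Grin2b (4.11 TPM) and 46.9% ± 3.23 for Grin2c (7.20 TPM). On the same transcripts Grin2b held 58.1% ± 2.01 in layer V neurons and Grin2a 38.3% ± 1.91, and interneurons had less Grin2b (33.3% ± 1.39) than Grin2d (44.5% ± 2.59). In the microglia libraries the 6 astrocyte markers summed to 210 to 264 TPM, against 7860 to 8190 in astrocyte libraries. The parts of astrocyte and neuronal RNA in the microglial shares were not tested.

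The TPM ratio of Grin2a to Grin2b, which shifts during postnatal development at many synapses, was 0.678, 0.774 and 0.737 in dentate granule cells, 0.335, 0.306 and 0.384 in layer V neurons and 0.420, 0.46 and 0.424 in interneurons. In cerebellar granule cells it was 63.2, 118 and 146. The ranges of the 4 neuronal types were apart on summed TPM. Each ratio was compared between 1 neuronal type (n = 3) and the other 3 (n = 9) by a two-sided exact permutation test, whose smallest possible p is 0.0091, with 16 tests adjusted together. The 9 libraries come from 3 different cell types, so that p also reflects the differences among those types. On the log2 scale the ratio was lower in layer V neurons by a difference of -3.05 and higher in cerebellar granule cells by 7.23 (exact permutation p = 0.0091, adjusted p = 0.018 for both). The differences of dentate granule cells (-1.59, adjusted p = 0.81) and interneurons (-2.58, adjusted p = 0.32) were not called. All of the negative differences rested largely on the cerebellar ratio, whose log2 mean was 6.16. The log2 mean was -0.46 for the dentate type, -1.2 for the interneuron type and -1.55 for the layer V type. Layer V thus lay near interneurons, and the dentate ratio was negative in difference although second only to the cerebellar one.

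The layer V ratio depended on the short transcripts of Grin2b. With the TPM of coding transcripts of 3000 bases or more alone, a choice made after the data were seen, the ratio was 0.6 to 0.707 in layer V neurons and 0.591 to 0.62 in interneurons, so that these ranges overlapped, and 0.823 to 0.911 in dentate granule cells. The layer V difference was then -2.41 and not called (adjusted p = 0.26 by exact permutation), and with estimated counts in place of TPM it was -2.63 and not called either (adjusted p = 0.26). The cerebellar difference on long transcripts was 6.83 (adjusted p = 0.024).

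**Figure D4:**
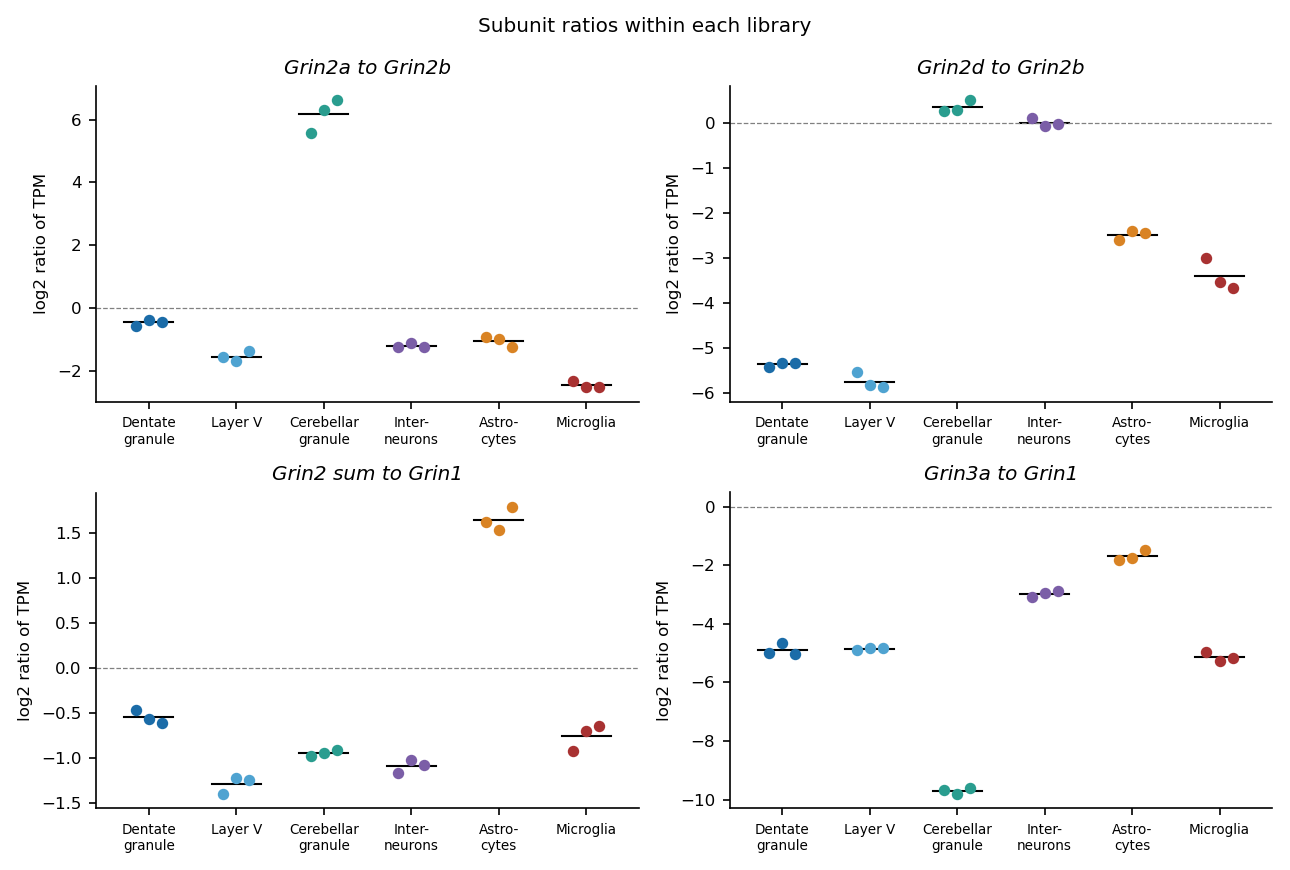
Log2 ratios of TPM within a library by cell type; points are single libraries, lines are means and the dashed line marks equal levels. The Grin2a to Grin2b ratio is far above 1 in cerebellar granule cells alone, and the Grin2 sum exceeds Grin1 in astrocytes alone.

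The ratio of Grin2d to Grin2b was 1.07, 0.951 and 0.984 in interneurons, against 0.0225 to 0.0241 in dentate granule cells and 0.0158 to 0.0202 in layer V neurons. It was 1.27 to 1.62 in cerebellar granule cells, where both genes were at 0.387 TPM or less. It was lower in layer V neurons (-4.07) and higher in cerebellar granule cells (4.05; exact permutation p = 0.0091, adjusted p = 0.018 for both), and with estimated counts the layer V difference (-3.69) was not called. The differences of interneurons (3.58) and dentate granule cells (-3.56) were not called (adjusted p = 0.29 by exact permutation for both). On the log2 scale layer V neurons (-5.74) lay near dentate granule cells (-5.35), and cerebellar granule cells (0.35) near interneurons (0.0). On long coding transcripts neither the layer V (-3.47) nor the cerebellar difference (3.68) was called, while that of dentate granule cells was (-3.77, adjusted p = 0.024 by exact permutation).

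The summed Grin2 TPM stayed below Grin1 in every neuronal and microglial library. The ratio was 0.683 ± 0.0333 (SD, n = 3) in dentate granule cells, 0.518 ± 0.0131 in cerebellar granule cells, 0.469 ± 0.0231 in interneurons, 0.410 ± 0.0270 in layer V neurons and 0.593 ± 0.0569 in microglia. In astrocytes it was 3.08, 2.89 and 3.46, since the Grin2 sum of 157 TPM stood beside 50.1 TPM of Grin1. Dentate granule cells were above the other neurons by 0.56 on the log2 scale and layer V neurons below them by a difference of -0.42 (exact permutation p = 0.0091, adjusted p = 0.018 for both). Cerebellar granule cells did not pass (0.03, adjusted p = 0.90). With estimated counts the layer V difference (-0.29, adjusted p = 0.79) was lost and that of cerebellar granule cells turned to -0.85 (adjusted p = 0.024); counts weight a gene by its length. On long coding transcripts the ratio was 0.264 ± 0.0237 in layer V neurons and 0.38 ± 0.0158 in microglia, and the layer V difference was -0.93 (adjusted p = 0.024 by exact permutation).

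Grin3a stood at 0.119, 0.128 and 0.136 of the Grin1 level in interneurons, 0.0305 to 0.0394 in dentate granule cells and 0.0333 to 0.0350 in layer V neurons. Cerebellar granule cells were at 0.000726 to 0.000881, and astrocytes, at 0.285 to 0.358, had the highest ratio. Interneurons were above the other neurons by 3.51 and cerebellar granule cells below them at -5.46 on the log2 scale (exact permutation p = 0.0091, adjusted p = 0.018 for both).

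Which Grin1 splice forms does each cell type translate? The tables hold 14 Grin1 transcripts, 8 of them protein-coding, and the coding ones are the combinations of N1 present or absent, C1 present or absent, and C2 or C2′. The use of a cassette is the percentage of a library's Grin1 TPM in transcripts that hold it. The Grin1 TPM include processed transcripts, which were given no cassette and lower the microglial values most (Grin1-212 held 6.87% ± 1.32 there, SD, n = 3). Shares were tested as the ratios were, in 40 tests adjusted together for 7 transcripts and 3 cassettes, for which the smallest adjusted p was 0.02.

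The N1 exon, the first sequence printed above, was in 3.86, 4.20 and 5.97% of Grin1 TPM in dentate granule cells. Cerebellar granule cells had it in 76.1, 77.0 and 78.4%. Interneurons (41.7% ± 2.01, SD, n = 3) and layer V neurons (26.5% ± 2.24) lay between, and the ranges of the 4 neuronal types were apart. N1 was less used in dentate granule cells by a difference of -43.8 percentage points and more in cerebellar granule cells by 52.9 (exact permutation p = 0.0091, adjusted p = 0.02 for both). Astrocytes (25.2% ± 1.26) were within the spread of the layer V value, and microglia were at 19.0% ± 3.03.

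**Figure D5:**
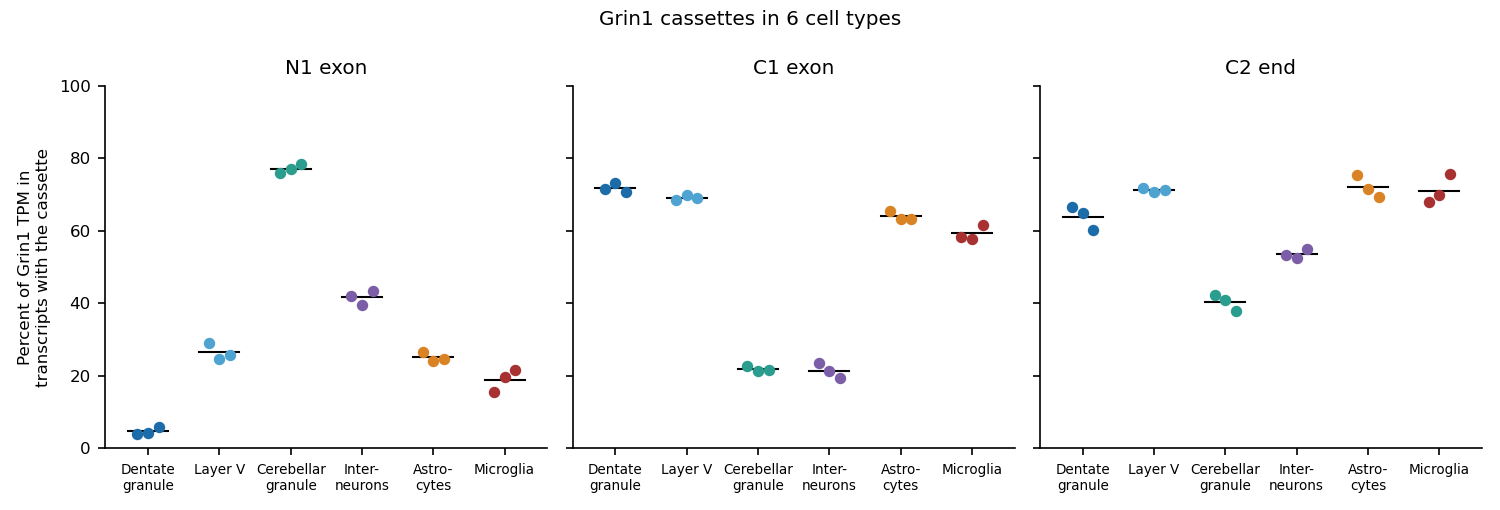
Percentage of Grin1 TPM in transcripts with the N1 exon, the C1 exon or the C2 end, by cell type; points are single libraries and lines are means. N1 runs from 3.86% in a dentate granule cell library to 78.4% in a cerebellar one, and C1 separates dentate and layer V neurons, at 68.6% or more, from cerebellar granule cells and interneurons, at 23.7% or less.

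C1 divided the neurons into pairs. It was in 71.8% ± 1.23 (SD, n = 3) of Grin1 TPM in dentate granule cells and 69.2% ± 0.62 in layer V neurons, but in 21.9% ± 0.809 in cerebellar granule cells and 21.4% ± 2.14 in interneurons. Only the dentate difference, 34.3 points, passed the test of 1 type against the other 3 (exact permutation p = 0.0091, adjusted p = 0.02). Astrocytes (64.1% ± 1.18) and microglia (59.3% ± 2.09) were nearer to the first pair. Of the coding Grin1 TPM alone, C1 was in 71.5% ± 1.33 without N1 and 71.0% ± 12.1 with N1 in microglia. In astrocytes these values were 68.3% ± 4.86 and 61.6% ± 10.8.

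The C2 end varied less, from 71.3% ± 0.589 (SD, n = 3) in layer V neurons and 63.9% ± 3.36 in dentate granule cells to 53.6% ± 1.36 in interneurons and 40.4% ± 2.29 in cerebellar granule cells. It was higher in layer V neurons by 18.6 points and lower in cerebellar granule cells by a difference of -22.6 points (exact permutation p = 0.0091, adjusted p = 0.02 for both). Its alternative C2′ was in 34.7% ± 3.15 of Grin1 TPM in dentate granule cells, 28.2% ± 0.51 in layer V neurons, 58.8% ± 2.50 in cerebellar granule cells and 45.3% ± 1.29 in interneurons.

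Single transcripts showed how the cassettes were combined. Grin1-201, without N1 and with C1 and C2, held 52.3% ± 2.98 (SD, n = 3) of Grin1 TPM in dentate granule cells, 43.6% ± 3.05 in layer V neurons and 11.8% ± 0.742 in interneurons, and was listed at 0.00% in the 3 cerebellar libraries, as were Grin1-202 and Grin1-206. In cerebellar granule cells Grin1-207 (N1 and C2′ without C1) held 29.2% ± 3.00 and Grin1-203 (N1 and C2 without C1) 26.1% ± 1.42. Interneurons had most of Grin1-202, which lacks N1 and C1 and ends with C2 (26.2% ± 2.16), and of Grin1-207 (24.7% ± 1.39).

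Kallisto splits reads among these near-identical transcripts by an estimate whose error was not used here, and the annotated first base differs with N1: all 4 transcripts with N1 begin at 25319095, Grin1-201, Grin1-202 and Grin1-206 at 25319120 and Grin1-205 at 25319187. The use of N1 and the use of an annotated start therefore cannot be told apart, and Grin1-205, the transcript without N1 that was above 0 in cerebellar granule cells (22% ± 0.947, SD, n = 3), is the one with the longest 5′ end.

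Beside the subunits, 25 genes of receptor partners were listed by role: scaffolds, kinases and phosphatases, auxiliary and surface partners, the supply and clearance of co-agonists, and downstream signalling. In neurons against glia 16 of the 25 were higher (36.4% of all genes tested were) and 8 lower (46.7%), with a median log2 fold change of 0.69 beside -0.18 for all genes. The lower calls of Camk2a (-0.16) and Kalrn (-0.41) rested largely on cerebellar granule cells (0.940 and 1.27 TPM). In dentate granule cells and layer V neurons both genes were above either glial type. Of the 6 scaffold genes 5 were higher, with a median of 1.44, and Dlg4, the gene of PSD-95, had 801 TPM in dentate granule cells and 90.5 TPM in microglia. Of the 5 co-agonist genes 4 were lower in neurons, with a median of -1.11 and against the same 46.7% of all genes, among them Slc7a10, the transporter of D-serine and glycine, which was at -5.11 (SE 0.14) and had 250.3 TPM in astrocytes, beside their high Grin2c level. The lower calls of Slc1a4 and Slc6a9 rested on astrocytes (123 and 51.5 TPM). In microglia Slc1a4 (6.09 TPM) was below every neuronal type, and Slc6a9 (7.23 TPM) was above dentate granule cells (6.32 TPM) only. Dao, also among the lower genes, was highest in cerebellar granule cells (1.43 TPM) and at 0.220 TPM or less in every other cell type. Nos1, the neuronal nitric oxide synthase, was higher by 3.91 (SE 0.09), and Ephb2, a receptor tyrosine kinase, by 2.74 (SE 0.05). Actn2, an actinin that binds GluN1, was lower at -1.53 (SE 0.17). This call rested on cerebellar granule cells (0.426 TPM) and on microglia (17.7 TPM, SD 7.82). Dentate granule cells (10.7 TPM), layer V neurons (5.00 TPM) and interneurons (3.68 TPM) were above astrocytes (3.16 TPM).

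Dentate granule cells, the neurons with most Grin2a and Grin2b, had 18 of the 25 partners higher (36.4% of all genes) and 5 lower (27.6%) than the other neurons, with a median of 1.16 beside 0.10 for all genes. Camk2a, the kinase subunit that docks on GluN2B, was higher by 5.14 (SE 0.09), and Rasgrf2, a calcium-activated exchange factor, by 4.46 (SE 0.07). Both folds rested largely on the very low cerebellar levels (0.940 and 0.114 TPM). Camk2a was at 3015 TPM in dentate granule cells, 1422 in layer V neurons and 428 in interneurons, and Rasgrf2 at 157, 25.2 and 114 TPM. Slc6a9, the glycine transporter GlyT1 (-1.17, SE 0.12), and the scaffold gene Dlg1 (-0.68, SE 0.04) were lower. Layer V neurons had 15 higher (35.8% of all genes) and 6 lower (31.6%; median 0.43 beside 0.04), with Camk2a at 4.01 (SE 0.09) and the exchange factor gene Kalrn at 2.73 (SE 0.06) the most raised, and Nos1 at -1.92 (SE 0.11) and Slc7a10 at -0.76 (SE 0.28) the most lowered. The Camk2a and Kalrn rises also rested largely on cerebellar granule cells, where Kalrn was at 1.27 TPM. Dentate granule cells had more of both genes than layer V neurons (Kalrn 392 against 180 TPM).

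Cerebellar granule cells, which had almost no Grin2b, had 7 partners higher (34.8% of all genes) and 16 lower (42.9%), with a median of -1.09 beside -0.21 for all genes. Camk2a was at 0.940 TPM there against 1422 TPM in layer V neurons (log2 fold change -10.3 against the other neurons, SE 0.17), and Rasgrf2 was at -9.92 (SE 0.14). Dao, the oxidase that degrades D-serine, was higher by 6.14 (SE 0.47) at a level of 1.43 TPM, and Ephb2 by 1.79 (SE 0.06). Interneurons had 10 higher (35.9% of all genes) and 12 lower (28.3%; median -0.11 beside 0.08). Neto1, an auxiliary protein of glutamate receptors, was higher by 4.36 (SE 0.07) and Rasgrf2 by 3.88 (SE 0.08). Both rises rested largely on cerebellar granule cells (0.0568 and 0.114 TPM). Interneurons had 95.3 TPM of Neto1 against 40.2 in dentate granule cells, and less Rasgrf2 (114 against 157 TPM). Ppp3ca, a catalytic subunit of calcineurin, was at -2.23 (SE 0.05) and Dao at -3.36 (SE 1.16). Dao was nearly absent, at 0.00674 TPM in interneurons, 0.0351 in layer V neurons and 0.104 in dentate granule cells. Astrocytes had 22 partners higher than microglia (39.6% of all genes) and 1 lower (36.2%, median 0.92 beside 0.04). The pan-neuronal markers also summed higher in astrocyte (826 to 1090 TPM) than in microglia libraries (383 to 430 TPM), and the part of neuronal RNA in these calls was not tested. Slc7a10 (4.78, SE 0.22) and Slc1a4, a transporter of serine and other neutral amino acids (4.41, SE 0.07), led the higher ones, and Actn2 was the lower one (-2.37, SE 0.27).

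The genes whose pattern was most like that of each subunit were found by Pearson's r of log2 CPM over the 18 libraries among 16077 protein-coding genes; the points share cell types, so that r mostly follows 6 levels, and it is given as a description. For Grin1 they were Rbfox2 (0.997), Ube2o (0.995) and Rps6kl1 (0.994), and for Grin2a Pgbd5 (0.995), Rasgrf1 (0.993) and Nexmif (0.991). For Grin2b they were Pak6 (0.997), Lrfn2 (0.996) and Elfn2 (0.995). Rasgrf1 is on the partner list and encodes a calcium-activated Ras exchange factor, Lrfn2 encodes a synaptic adhesion protein, and Rbfox2 a splicing factor. Grin2c was most like Tmem51 (0.979), Plcd4 (0.976) and Ngly1 (0.971), Grin2d most like Adamts15 (0.985), Krt73 (0.981) and Xrcc3 (0.976), and Grin3a most like Tenm3 (0.996), Arnt2 (0.992) and Rimklb (0.985).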

How the data were processed

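Messenger RNA from 22 RiboTag libraries of 6 cell types was analysed, 1 library per replicate (18 libraries, with that of batch 1 for the 4 replicates that have a library in both batches). All interneuron and microglia libraries were of batch 2 and the other main libraries of batch 1. Per the submitters' notes and the methods, the authors removed adapters by cutadapt 3.5 and used kallisto 0.46.2 with GENCODE transcripts. They deposited estimated counts per transcript, not normalized, and TPM, scaled per length and library. Whether kallisto used strand is not given in the sources used here, and the authors' sleuth test was not run.

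Both units were summed per gene over transcripts. Counts were rounded and tested in 1 fit of 6 cell types by edgeR 4.0.16 (TMM, filterByExpr, robust quasi-likelihood) in R 4.3.3, with Benjamini-Hochberg adjustment and calls at 0.05. On data simulated for the cerebellar contrast over 20524 genes, 45 of 50 genes changed 1.5-fold and 48 of 50 changed 2-fold were called, with 14 false calls. Ratios and Grin1 shares used TPM (with 0.1 added in ratios) and exact permutation over the 12 neuronal libraries, in Python 3.11.15 with scipy 1.17.1, numpy 2.4.6 and pandas 2.3.3; figures used matplotlib 3.10.9. Transcripts with a mean share of at least 5% of Grin1 TPM were tested. Cassettes and positions came from GENCODE M21 (GRCm38), which holds the 14 Grin1 transcripts under the same versioned identifiers.

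The text names the 6 members, Grin3b, Grin1os, the 3 protein-coding genes most like each member, and, of the 25 partners, in each contrast the 2 called genes with the largest rise and the 2 with the largest fall. Outside this rule, Dlg4 and the markers were named after their values were seen. The members and lists were chosen with earlier results of these data known. Alternatives were DESeq2 1.42.0, other size factors, no count filter, limma 3.58.1 on log2 TPM, protein-coding transcripts alone, other uses of the batches, the replicate number as a block, and leaving out each library. Coding transcripts of 3000 bases or more alone were added for the ratios after seeing the data. Replicates were separate samples of a group, and the labels of layer V replicate 1 give a different sex in each batch. No replicate pair agreed within sampling noise. With 3 libraries per cell type, edgeR's p-values measure the spread between these samples. Those of the permutation tests also reflect the differences among the 3 cell types that 1 type was set against.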

Additional observations from a re-analysis of the deposited data

How the results depend on the processing

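Of the 996 recomputed log2 fold changes of the 6 genes, 948 kept their direction and side of the threshold, 23 became called, 4 lost the call and 21 changed sign. Within batch 1, which lacks interneurons and microglia, 2 members were called higher and 3 lower in neurons than in glia, and Grin2d turned to -0.91 in neurons against glia, 1.67 in dentate granule cells and 0.68 in layer V neurons. Grin3a in neurons against glia was 0.04 within batch 2. By limma on log2(TPM + 0.5), Grin3a was 0.34 in neurons against glia (called), Grin1 was -0.09 in layer V neurons (not called) and 0.13 in interneurons (called), and in astrocytes against microglia Grin2b was -0.84, with 3 members called higher and 1 lower. The cause of these changes by limma was not tested. Grin1 in cerebellar granule cells was 0.01 with all 22 libraries and a batch term, and between -0.05 and 0.03 when 1 library was left out.

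With estimated counts in place of TPM, layer V differences were -2.63 for Grin2a to Grin2b, -3.69 for Grin2d to Grin2b and -0.29 for the Grin2 sum to Grin1, all no longer called, and the cerebellar difference of that sum turned from 0.03 to -0.85. On coding transcripts of 3000 bases or more, chosen after seeing the data, the Grin2a to Grin2b difference of layer V neurons (-2.41) and the Grin2d to Grin2b differences of layer V neurons (-3.47) and cerebellar granule cells (3.68) lost their calls, and the Grin2d to Grin2b difference of dentate granule cells (-3.77) became called. Leaving out 1 library, with equal weight per cell type and no test, the Grin2a to Grin2b difference ranged from -1.69 to -1.52 in dentate granule cells and from -2.68 to -2.51 in interneurons, that of Grin3a to Grin1 in layer V neurons from 0.98 to 1.04, and that of the C2 end in layer V neurons from 18.01 to 19.09 points. Without layer V replicate 1, Grin1 lost its call there (0.11), and without cerebellar granule cell replicate 1, Grin2a in layer V neurons was called (-0.25, adjusted p = 0.028).

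With the replicate number as a block, no call of the 6 genes changed (Grin2c in neurons against glia was -2.93, adjusted p = 1.2e-08 by edgeR). Deviations of samples with the same number had a median correlation of 0.0391, from -0.0999 to 0.109, so that the numbers do not pair the samples. Depth limits the lowest values: Grin2b rested on 86 to 139 counts per library in cerebellar granule cells, against 19201 or more in the other neurons.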

Other observations

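Some transcript-level values belong to no comparison above and are given without a test, chosen after their values were seen. In interneurons C1 was in 26.5% ± 1.94 (SD, n = 3) of the coding Grin1 TPM without N1 and in 15% ± 2.80 of that with N1. In layer V neurons the values were 73.1% ± 3.35 and 59.2% ± 7.51, and in cerebellar granule cells 28.4% ± 1.36 of the Grin1 TPM with N1 held C1, while the transcript without N1 that was above 0 there lacks it. Processed transcripts took more of Grin1 in microglia than in the other cell types: Grin1-212 held 6.87% ± 1.32 and Grin1-213 5.74% ± 2.21 of Grin1 TPM, against 1.57% ± 1.09 and 0.673% ± 0.678 in astrocytes and less than 0.5% of each in neurons.

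Grin2c was split between Grin2c-201 and Grin2c-202, with 56.8% ± 1.68 (SD, n = 3) of its TPM in Grin2c-201 in cerebellar granule cells and 55.4% ± 6.26 in astrocytes, so that the 2 cell types with a high Grin2c level differed by less than the spread between astrocyte libraries. Grin3a-201 held 79.9% ± 3.99 of Grin3a TPM in interneurons and 79.8% ± 3.67 in astrocytes.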
